A study of Caenorhabditis elegans with 2 samples.

Results

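The genes described here encode the machinery of oxidative phosphorylation in the nematode Caenorhabditis elegans. They are 38 of the 19973 nuclear protein-coding genes of the annotation, named in a list of gene symbols, and they fall into complex I (8 genes), complex II (4), complex III (7), complex IV (7), cytochrome c (2) and ATP synthase (10). The list names symbols and its rule uses no measured value, but it was chosen with earlier results of these data known. RNA polymerase II was mapped along the genome by ChIP-seq, in which DNA bound by a protein is pulled down with an antibody and sequenced, here against AMA-1, the large catalytic subunit of the enzyme. The only group was L2 larvae of the wild-type strain N2, taken as whole animals of mixed sex, with 2 biological replicates and without a second genotype, treatment or stage. In whole animals, strong occupancy in a few cells and weak occupancy in many cells cannot be told apart.

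Oxidative phosphorylation passes electrons from food through complexes I to IV of the inner mitochondrial membrane, with ubiquinone and cytochrome c as mobile carriers, and pumps protons as it does so. ATP synthase lets the protons flow back and makes ATP. Complex I takes electrons from NADH, complex II from succinate, complex III hands them to cytochrome c, and complex IV passes them to oxygen. Most subunits are encoded in the nucleus and imported, while a few are encoded in mitochondrial DNA, which RNA polymerase II does not transcribe. In C. elegans, mutations in several of these genes are known for their effects on lifespan and oxygen sensitivity, among them isp-1, nuo-6, mev-1 and gas-1.

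The deposited lists give each peak a summit position and a signal, the authors' own value, whose scale is not given and which is compared here only within a list. The optimal list, which the authors made by the irreproducible discovery rate (IDR) from both replicates, held 1861 peaks with signals from 47.4 to 1435. It was the upper end of a pooled list of 30000 peaks and background regions. Each replicate also had a list of 30000, of which the 1861 of highest signal were used where a replicate was taken alone. A place is a peak's position in its list, with 1 the highest. Distances are counted along the gene from its annotated 5′ end, and a negative distance lies upstream. The sequencing depth behind the lists is unknown.

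RNA polymerase II peaks lay at a larger share of the oxidative phosphorylation genes than of all protein-coding genes in the optimal list and in each replicate. A summit within 500 bp of the 5′ end, called a promoter summit below, was found at 9 of 38 members (23.7%), against 4.80% of all genes. A summit anywhere from 500 bp upstream to 500 bp past the 3′ end was found at 14 of 38 members (36.8%), against 7.60% of all genes. Past the 3′ end, within 500 bp, 6 of 38 members (15.8%) had a summit, against 2.70% of all genes. Separate summits near both ends were found at 5 members (13.2%), against 1.18% of all genes. In replicate 1 alone, 13 members (34.2%) had a promoter summit, against 5.24% of all genes, and 19 (50.0%) had one in the gene or its flanks, against 7.90%. In replicate 2 alone, 5 members (13.2%) had a promoter summit, against 2.94% of all genes, and 11 (28.9%) had one in the gene or its flanks, against 6.44%. The order of the shares was therefore the same in both replicates, with fewer members in replicate 2. These are counts over a chosen list in 1 group, and no test was made of them.

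**Figure D1:**
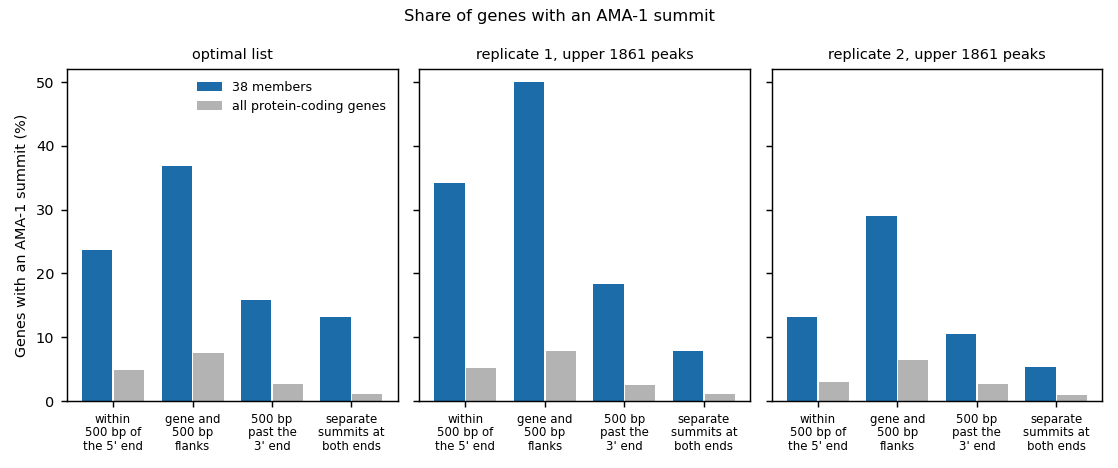
Share of genes (%, y axis) with an AMA-1 summit near the 5′ end, in the gene or its flanks, past the 3′ end, or near both ends (x axis), in the optimal list and in the 1861 highest peaks of each replicate. Blue bars are the 38 members and grey bars all 19973 protein-coding genes, and the blue bar is the taller one in every pair.

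The gap between members and all genes was smaller, as a ratio, in the whole lists with their background regions. In the pooled list, 34 members (89.5%) had a region in the gene or its flanks, against 44.2% of all genes, and 32 members (84.2%) had one near the 5′ end, against 31.7%. The same count in the gene or its flanks was 35 members (92.1%) against 45.1% of all genes in replicate 1, and 32 members (84.2%) against 44.0% in replicate 2. Among genes with a pooled region near the 5′ end, the median of the highest signal was 38.7 over the members and 21.7 over all genes. In replicate 1 it was 28.9 over the members and 15.7 over all genes, and in replicate 2 the gap was smaller, with 9.76 over the members and 8.22 over all genes. The members were short, with a median length of 1302.5 bp against 2027 bp for all genes.

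The sequences at 5 of the promoter summits show what lay under the polymerase peaks. Each runs 201 bases, 5′ to 3′ on the strand of the gene, with the summit in the middle, and is read from the RefSeq genome of WBcel235 (ce11). The windows are cox-5A at chrIII:12905126-12905326, atp-2 at chrIII:5228161-5228361, nuo-1 at chrII:11097406-11097606, asg-2 at chrX:6840961-6841161 and asb-2 at chrX:4469447-4469647, all on the plus strand. The first 4 are optimal summits of complex IV, ATP synthase and complex I genes, and asb-2 is a pooled summit just below the lowest optimal signal. Capitals mark the hexamers TATAAA, or GGGCGG, or GAGAGA, and the nonamers CGACACTCC and TTGCGAGAC, each searched for on both strands. No marked matches overlap.
cox-5A: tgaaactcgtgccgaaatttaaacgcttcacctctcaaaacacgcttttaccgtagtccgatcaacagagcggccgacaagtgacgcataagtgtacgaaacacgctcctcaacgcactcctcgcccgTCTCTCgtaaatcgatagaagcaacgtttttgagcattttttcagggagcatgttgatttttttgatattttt
atp-2: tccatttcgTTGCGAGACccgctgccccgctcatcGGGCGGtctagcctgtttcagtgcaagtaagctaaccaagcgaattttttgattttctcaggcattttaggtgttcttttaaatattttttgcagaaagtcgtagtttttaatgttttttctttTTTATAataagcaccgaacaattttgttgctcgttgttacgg
nuo-1: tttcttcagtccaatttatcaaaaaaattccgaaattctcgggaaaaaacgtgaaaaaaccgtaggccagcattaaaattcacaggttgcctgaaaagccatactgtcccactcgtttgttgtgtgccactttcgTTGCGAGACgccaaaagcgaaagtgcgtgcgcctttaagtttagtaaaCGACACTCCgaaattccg
asg-2: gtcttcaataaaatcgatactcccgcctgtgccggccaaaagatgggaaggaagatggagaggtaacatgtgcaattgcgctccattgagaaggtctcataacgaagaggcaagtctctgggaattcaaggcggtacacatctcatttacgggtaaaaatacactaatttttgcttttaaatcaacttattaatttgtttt
asb-2: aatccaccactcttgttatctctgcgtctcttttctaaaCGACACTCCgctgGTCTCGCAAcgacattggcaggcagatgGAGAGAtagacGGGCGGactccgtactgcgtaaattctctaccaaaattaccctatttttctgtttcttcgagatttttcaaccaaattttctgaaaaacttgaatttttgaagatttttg
The nonamers TTGCGAGAC and CGACACTCC were picked after these windows had been read. TTGCGAGAC stood in 2 of the 9 optimal promoter windows, those of nuo-1 and atp-2, and in 1.31% of the 837 optimal windows with a coding 5′ end within 500 bp. CGACACTCC stood in 1 of 9, that of nuo-1, and in 1.79% of the 837. The pooled window of asb-2 held both. GGGCGG stood in 2 of 9 windows, against 5.14% of all, TATAAA in 1 of 9, against 16.2%, and GAGAGA in 1 of 9, against 21.4%. The asg-2 window held none of the 5, and neither did the optimal windows of cox-5B, cyc-1, atp-1 and hpo-18, which are not printed. The median GC content was 39.3% in the 9 windows and 39.3% in the 837. Motif matches describe the letters only.

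**Figure D2:**
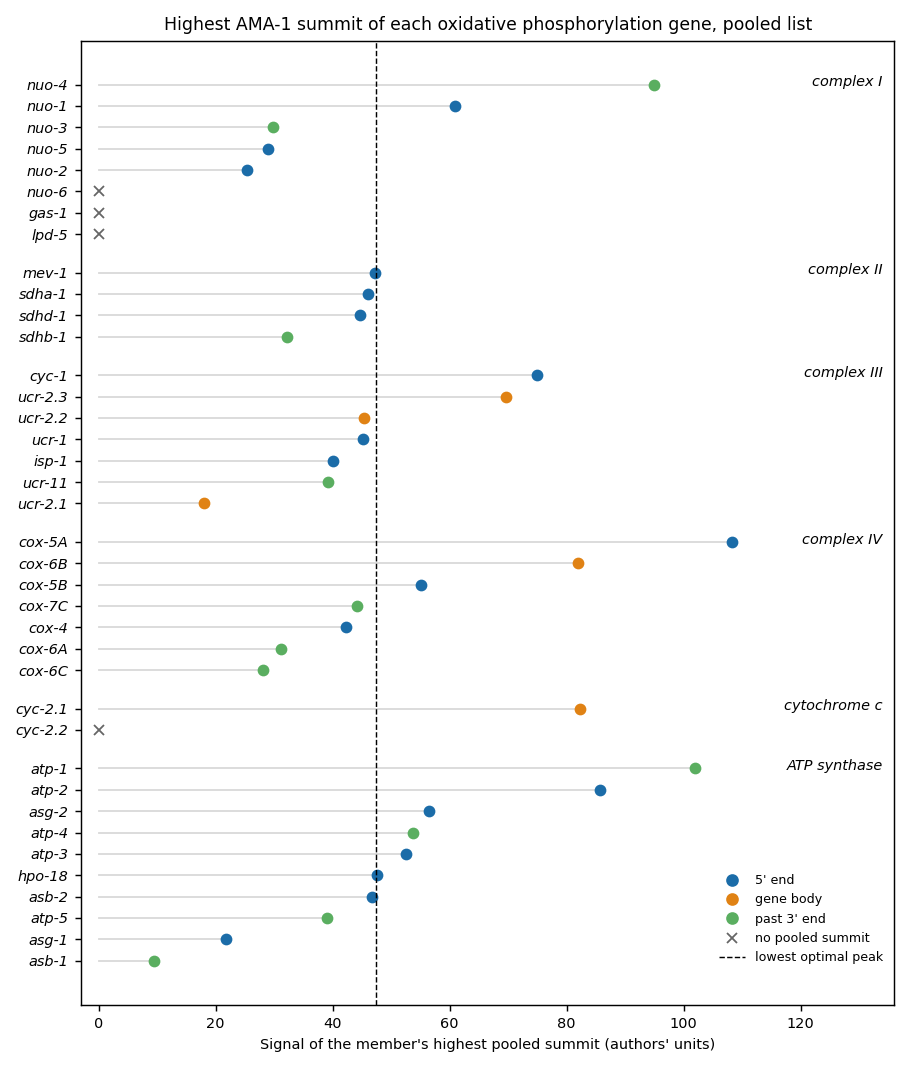
Signal (authors' units, x axis) of the highest pooled summit of each of the 38 members (y axis), grouped by complex and coloured by where the summit lay, with a dashed line at the lowest optimal signal of 47.4. The 14 members with an optimal summit reach the line, 20 lie below it and crosses at 0 mark the 4 without a pooled summit. The cox-6B point is placed by its Ensembl span.

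In complex I, 2 of 8 genes had an optimal summit and 3 had no pooled region at all. Over all genes, 7.60% had an optimal summit in the gene or its flanks and 55.8% had no pooled region there. The highest was at nuo-4 (III, 7156026 to 7158809, minus strand), an accessory subunit, and it lay 152 bp past the 3′ end between genes. Its signal was 94.9 in the pooled list (place 377), 58.1 in replicate 1 (place 635) and 40.3 in replicate 2 (place 279). Near its 5′ end nuo-4 reached only 34.1 in the pooled list, below the optimal list. The gene for the flavin-binding subunit, nuo-1 (II, 11097837 to 11100146, plus strand), had its summit at -331 bp, with 60.96 in the pooled list (place 1084) and 48.4 in replicate 1 (place 987). In replicate 2 the overlapping region had 3.68 and place 28959, near the bottom of that list. The nuo-1 summit was nearer to the divergent ribosomal protein gene rpl-36.A, whose 5′ end was 302 bp away.

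The other complex I genes had no optimal summit. Over all genes with a pooled region in the gene or its flanks, the median of the highest signal was 23.3. Pooled signal was highest at 29.7 for nuo-3, past its 3′ end, at 29.0 for nuo-5, which encodes the largest iron-sulfur subunit, and at 25.3 for nuo-2, another iron-sulfur arm protein. nuo-6 had a region of 5.60 in replicate 1 (place 26837) and none in replicate 2. lpd-5 had 19.2 in replicate 1 (place 5866), 1 bp from its 5′ end, and none in replicate 2. gas-1, a core subunit near the quinone site, had no region in any of the lists. Absence from a list cut at 30000 regions does not show that the polymerase is absent.

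Complex II had no optimal summit at any of its 4 genes, against 7.60% of all genes, but 3 of them sat just below the list. mev-1, the cytochrome b anchor subunit, had a summit at -164 bp with a pooled signal of 47.2 and place 1876. Its places were 2769 in replicate 1, at -164 bp, and 1515 in replicate 2, at -73 bp, and the divergent gene jmjd-4 began 95 bp from the pooled summit. sdha-1, the flavoprotein, had 46.1 at -183 bp (place 1954), on a small nucleolar RNA gene, D2021.6. At that end it had 47.1 at -203 bp in replicate 1 (place 1043) and 3.70 at -185 bp in replicate 2 (place 28853). The highest replicate 2 summit of sdha-1 was another one, 630 bp into the gene (place 13193). sdhd-1, the other anchor, reached 44.7 at -162 bp, and sdhb-1, the iron-sulfur protein, reached 32.2 past its 3′ end.

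In complex III, 2 of 7 genes had an optimal summit, against 7.60% of all genes. cyc-1 (I, 8022674 to 8024422, minus strand), which encodes cytochrome c1, had a summit at -240 bp with 74.9 in the pooled list (place 687), 51.3 in replicate 1 (place 855) and 28.7 in replicate 2 (place 724). A second one lay in its 3′ untranslated region, 258 bp before the 3′ end, with 48.2 in the pooled list (place 1799), 40.2 in replicate 1 (place 1452) and 11.8 in replicate 2 (place 5861). cyc-1 thus had a high upstream summit in both replicates and a second one that was high in replicate 1 alone. The upstream summit lay nearer to the 3′ end of the same-strand gene C54G4.9, 218 bp away. The 3′ end of the convergent gene C54G4.7 lay 198 bp from the second summit. ucr-2.3 (III, 879860 to 881458, plus strand), a core protein, had a summit in its coding sequence 147 bp before the 3′ end. Its signal was 69.6 in the pooled list (place 801), 27.6 in replicate 1 (place 3115) and 29.9 in replicate 2 (place 644). The 3′ end of the convergent gene zer-1 lay 132 bp from that summit.

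The remaining complex III genes lay below the optimal list. ucr-2.2 reached 45.3 (place 2018), but inside the gene at 2189 bp, where the collagen gene col-41 lies on the other strand. It had no region in replicate 1, and 33.4 in replicate 2 (place 477). ucr-1 reached 45.2 at -198 bp (place 2030). isp-1, the Rieske iron-sulfur protein, reached 40.1, the small subunit gene ucr-11 39.3 and ucr-2.1 18.01.

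Complex IV held the highest member of all. cox-5A (III, 12905491 to 12906619, plus strand) had a summit at -265 bp with 108 in the pooled list (place 279), 72.0 in replicate 1 (place 388) and 42.7 in replicate 2 (place 236). A second summit lay 188 bp past its 3′ end, with 64.8 in the pooled list (place 955), 46.3 in replicate 1 (place 1077) and 27.1 in replicate 2 (place 838). Both summits were high in both replicates, and neither had another gene end within 500 bp.

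cox-5B (I, 9788725 to 9790050, plus strand), another nuclear subunit, also had summits near both ends. The first lay 65 bp after the 5′ end in the 5′ untranslated region, with 55.0 in the pooled list (place 1364), 28.5 in replicate 1 (place 2940) and 28.1 in replicate 2 (place 758). The second lay 147 bp past the 3′ end, with 54.5 in the pooled list (place 1389), 39.8 in replicate 1 (place 1475) and 15.8 in replicate 2 (place 3182). The 5′ summit stood higher in the list of replicate 2 and the 3′ summit higher in that of replicate 1.

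The span of cox-6B depends on the annotation. Ensembl gives 2 transcripts over 87197 bp of chromosome III, with other genes inside, and RefSeq a model of 553 bp (2786202 to 2786754). Over the RefSeq span its summit lay 159 bp upstream of the 5′ end, with 81.8 in the pooled list (place 545), 67.8 in replicate 1 (place 444) and 23.9 in replicate 2 (place 1180). The divergent gene Y71H2AM.20 began 95 bp from that summit. The other optimal summit in the Ensembl span (55.1) lay 172 bp upstream of swsn-3. With the RefSeq span, 10 members had a promoter summit instead of 9. Below the optimal list, cox-7C reached 44.2 and cox-6A 31.2, both past the 3′ end, cox-4 reached 42.2 near the 5′ end, and cox-6C 28.1 past the 3′ end.

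Of the 2 genes for cytochrome c, the soluble carrier between complexes III and IV, cyc-2.1 (IV, 4747895 to 4749012, minus strand) had optimal summits. The first lay 550 bp into the gene, in an intron, with 82.3 in the pooled list (place 541), 62.8 in replicate 1 (place 523) and 11.7 in replicate 2 (place 6004). The second lay 91 bp past the 3′ end, with 74.1 in the pooled list (place 703), 50.4 in replicate 1 (place 892) and 26.8 in replicate 2 (place 854). That second summit stood in coding sequence of tctn-1, 28 bp after the start of that gene. cyc-2.2, whose protein is 78.4% identical, had no region in any of the lists.

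In ATP synthase, 5 of 10 genes had an optimal promoter summit and 6 of 10 one in the gene or its flanks, the highest counts of the groups in that list. Over all genes the shares in the optimal list were 4.80% and 7.60%. In replicate 1 alone the counts were 6 and 7 of 10, against 5.24% and 7.90% of all genes. In replicate 2 alone they were 1 and 2 of 10, against 2.94% and 6.44% of all genes. Complex IV had 2 and 3 of 7 in replicate 2. With so few genes in each group, the counts do not rank the complexes. atp-2 (III, 5228417 to 5230536, plus strand), the F1 beta subunit that carries the catalytic sites, had a summit at -156 bp with 85.7 in the pooled list (place 482). The overlapping region had 76.6 in replicate 1 (place 336) and 7.25 in replicate 2 (place 13444). Replicate 2 had its own higher summit near that end at 309 bp, with 29.9 (place 647). atp-2 therefore counted as a promoter call in each replicate at different positions.

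The second atp-2 summit lay in the 3′ untranslated region 16 bp before the 3′ end, with 76.4 in the pooled list (place 653), 32.0 in replicate 1 (place 2333) and 43.2 in replicate 2 (place 230). The gene prmt-5 began 35 bp downstream of it on the same strand. At the 5′ summit, the divergent genes C34E10.10 and C34E10.12 began 377 and 380 bp away.

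atp-1 (I, 12652277 to 12654655, plus strand), the F1 alpha subunit, was the opposite of cox-5A and cyc-1 in that its higher pooled summit lay past the 3′ end. That summit, 117 bp past the end, had 102 in the pooled list (place 321), 57.4 in replicate 1 (place 663) and 45.5 in replicate 2 (place 210). The 3′ end of the convergent gene T26E3.7 lay 242 bp from it. The summit in coding sequence 155 bp after the 5′ end had 74.8 in the pooled list (place 690), 58.4 in replicate 1 (place 625) and 17.5 in replicate 2 (place 2490). In replicate 1 the ends were level, and in replicate 2 the 3′ summit was the higher. The divergent gene mcrs-1 began 345 bp from the 5′ summit.

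The smaller ATP synthase calls leaned on replicate 1. asg-2 (X, 6841258 to 6842121, plus strand), a subunit g gene, had a summit at -197 bp with 56.5 in the pooled list (place 1289), 50.5 in replicate 1 (place 883) and 7.50 in replicate 2 (place 12820). atp-4 (V, 6426246 to 6427112, minus strand), the coupling subunit, had its summit 105 bp past the 3′ end in the 5′ untranslated region of T05H4.11, with 53.8 in the pooled list (place 1433), 47.0 in replicate 1 (place 1045) and 9.50 in replicate 2 (place 8726). atp-3 (I, 5428533 to 5429908, minus strand), the stalk subunit OSCP, had its summit at -22 bp, with 52.5 in the pooled list (place 1515), 38.7 in replicate 1 (place 1564) and 7.17 in replicate 2 (place 13664). All 3 were high in replicate 1 alone.

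hpo-18 (V, 4346089 to 4346425, minus strand), the F1 epsilon subunit, was the member nearest the edge of the list from inside. Its summit at -468 bp had 47.5 in the pooled list (place 1852), 42.3 in replicate 1 (place 1300) and, in the overlapping region, 3.64 in replicate 2 (place 29250). The divergent gene mcm-7, which encodes a subunit of the replicative helicase, began nearer, 273 bp from the summit. Just outside the list stood asb-2, a subunit b gene, with 46.7 at -219 bp in the pooled list (place 1917). Replicate 1 had place 1617 at -218 bp, and replicate 2 place 7245 at -284 bp and a higher summit at 427 bp (place 3818). atp-5, subunit d, reached 39.0 past its 3′ end.

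**Figure D3:**
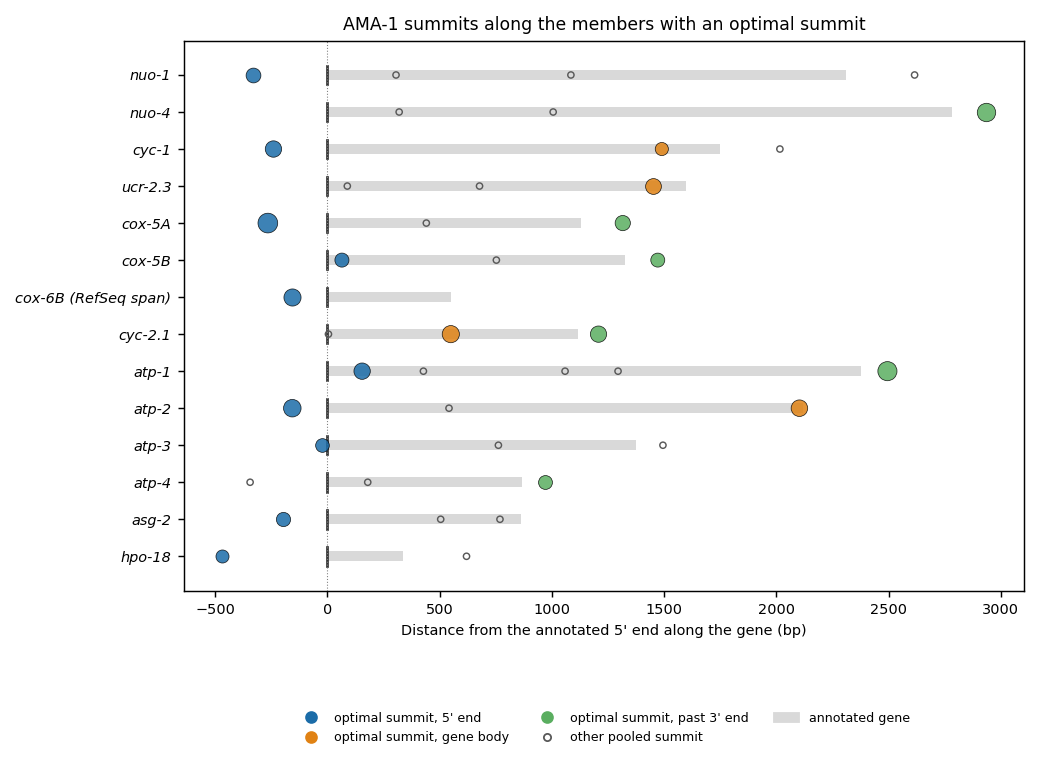
AMA-1 summits along the 14 members with an optimal summit (y axis), as distance in bp from the annotated 5′ end (x axis), with grey bars for the genes. Filled circles are optimal summits, with area in proportion to signal and colour by place, and open circles are the other pooled summits. cyc-1, cox-5A, cox-5B, atp-1 and atp-2 carry filled circles near both ends, and cox-6B is drawn with its RefSeq span and its optimal summit alone.

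The 21 optimal summits in the members' windows were 9 near a 5′ end, 6 past a 3′ end and 6 in the gene body. Of the 6 in the gene body, 3 lay within 500 bp before the 3′ end, at cyc-1, ucr-2.3 and atp-2, and 2 belong to cox-6B by its Ensembl span. The remaining 1, at cyc-2.1, lay more than 500 bp from either end. Of the 9 near a 5′ end, 7 lay upstream of it and 2 downstream. For 6 of the 9, those of nuo-1, asg-2, atp-1, atp-2, atp-3 and hpo-18, another protein-coding gene also began within 500 bp of the summit. Over all 837 such summits the share was 19.2%. The lists have no strand, and where 2 divergent genes share a summit both are counted. When each summit was given only to the gene whose 5′ end was nearest, 7 members kept a promoter call and 9 kept any call. nuo-1 and hpo-18 were lost near the 5′ end. nuo-4 lost its call under this rule although its summit lay 152 bp past its own 3′ end.

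At the 5 members with summits near both ends, the balance of the ends differed between the replicates to varying extents. The ratio of the 3′ to the 5′ signal in the pooled list was 0.64 at cyc-1, 0.60 at cox-5A, 0.99 at cox-5B, 1.36 at atp-1 and 0.89 at atp-2. For cox-5A it was 0.64 in replicate 1 and 0.63 in replicate 2, and for cyc-1 0.78 in replicate 1 and 0.41 in replicate 2. For atp-1 it was 0.98 in replicate 1 and 2.60 in replicate 2. For cox-5B it was 1.398 in replicate 1 and 0.56 in replicate 2. For atp-2 it was 0.42 in replicate 1 and 1.44 in replicate 2, where the highest 5′ summit lay at 309 bp. Taken at the region that overlaps the -156 bp summit, the replicate 2 ratio of atp-2 was 5.95. cox-5A and cyc-1 were higher at the 5′ end in both replicates, while atp-2 and cox-5B changed sides.

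Many C. elegans genes are transcribed as part of an operon, in which genes follow each other closely on the same strand. A same-strand gene ended within 150 bp upstream of 6 members, nuo-2, nuo-4, nuo-5, ucr-11, cyc-2.1 and atp-4. None of the 6 had an optimal promoter summit, against 9 of the other 32, while over all genes the shares were 4.13% with such a neighbour and 4.86% without. The pooled signal near the 5′ end was below that of the upstream gene in 3 pairs. It was 16.9 at cyc-2.1 and 186.5 at the ribosomal protein gene rpl-20, which ends 110 bp before it, 27.1 at atp-4 and 32.6 at alh-4, and 29.3 at ucr-11 and 31.8 at dad-1. In the other 3 pairs the member was the higher, with 34.1 at nuo-4 and 20.7 at rnp-7, and 29.0 at nuo-5 and 26.6 at Y45G12B.2. The last had 25.3 at nuo-2 and no region near the 5′ end of T10E9.14. That nuo-2 summit itself lay inside T10E9.14, 131 bp before the 3′ end of T10E9.14. Likewise, the atp-4 summit lay inside alh-4, 248 bp before the 3′ end of alh-4. The pairs had no common direction. The 150 bp limit was chosen after the values were seen, and operon membership was not looked up.

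**Figure D4:**
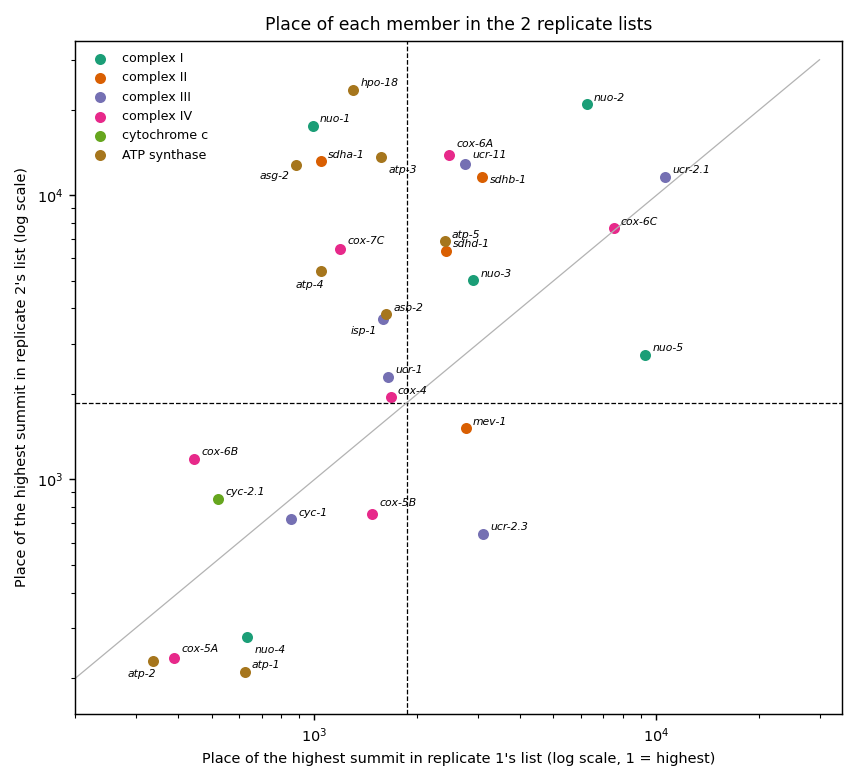
Place of each member's highest summit in the list of replicate 1 (x axis) and of replicate 2 (y axis), both on log scales with 1 the highest, for members with a region in both, which need not be the same summit. Dashed lines mark place 1861 and the grey line equal places. The 8 members in the lower left corner are in the upper 1861 of both replicates, and hpo-18, nuo-1, asg-2, sdha-1 and atp-3 stand high in replicate 1 and between places 12820 and 23520 in replicate 2.

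Calls shared by the replicates were counted by gene, and the summits could differ. cox-5B was called at its 3′ summit in replicate 1 (place 1475) and at its 5′ summit in replicate 2 (place 758). atp-2 was called at -156 bp in replicate 1 (place 336) and at other summits in replicate 2, the highest near its 3′ end (place 230). Both replicates had a summit in the gene or its flanks at 8 members, nuo-4, cyc-1, cox-5A, cox-5B, cox-6B, cyc-2.1, atp-1 and atp-2. These were 42.1% of the 19 members of replicate 1 and 72.7% of the 11 of replicate 2. Over all genes, the shared calls were 46.2% of those of replicate 1 and 56.6% of those of replicate 2. For promoter summits, cyc-1, cox-5A and atp-2 were shared, 23.1% of the 13 members of replicate 1 and 3 of the 5 of replicate 2, against 32.1% of the calls of replicate 1 and 57.2% of those of replicate 2 over all genes. Of the 9 optimal promoter summits, 8 were overlapped by an upper peak of replicate 1 and 3 by one of replicate 2. Of the other 12 optimal summits, 10 were overlapped by an upper peak of replicate 1 and 7 by one of replicate 2. Over the whole optimal list these shares were 81.5% for replicate 1 and 56.0% for replicate 2.

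Several subunits have more than 1 gene, and the copies are given side by side. The subunit b genes asb-1 and asb-2 encode proteins that are 72.1% identical, and their highest pooled signals were 9.43 and 46.7. The asb-1 summit lay 110 bp past its 3′ end and 9 bp upstream of the same-strand gene apc-11. asb-1 is known as the copy used in the germ line. The subunit g genes asg-1 and asg-2 encode proteins that are 76.3% identical, with 21.9 and 56.5, and the asg-1 summit lay inside the divergent gene mrps-15. The cytochrome c genes cyc-2.1 and cyc-2.2 stood at 82.3 and at no region. The core proteins ucr-2.1, ucr-2.2 and ucr-2.3, between 38.3% and 39.7% identical, had 18.01, 45.3 and 69.6. gas-1 has a close copy outside the list, nduf-2.2, with a protein 92.4% identical, and neither gene had a region in any list. sdha-1, at 46.1 in the pooled list, has the copy sdha-2 (80.6% identical), which had no pooled region and 19.95 in replicate 1. Shared sequence was small, since the lowest share of unique 31-base words over a member was 94.9%, at nuo-5, and the median was 100%.

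Other mitochondrial genes gave a scale for these counts. Of 26 further subunit genes of the same complexes, 2 (7.69%) had an optimal promoter summit, against 4.80% of all genes. They were nduf-11 with 76.6 and ndub-8 with 55.2. In the gene or its flanks the count was also 2 of 26 (7.69%), close to the 7.60% of all genes, and past the 3′ end it was 0 of 26. Of 22 assembly and cofactor genes, 3 had a promoter summit and 6 a summit in the gene or its flanks, the highest at sco-1, a copper chaperone of complex IV (74.2). Of 9 carriers and inhibitors of the inner membrane, 4 had a promoter summit, and the ADP/ATP carrier gene ant-1.1 had a signal of 202, above every member, 67 bp past its 3′ end. The ATP synthase inhibitor gene mai-1 reached 120. Of 20 genes of the TCA cycle and pyruvate entry, 6 had a promoter summit, with citrate synthase cts-1 at 129, 62 bp past its 3′ end, and dld-1 at 121. Of 70 mitochondrial ribosomal protein genes, 10 had a promoter summit (14.3%). The members' promoter share (23.7%) lay above those of the further subunits (7.69%), assembly and cofactor genes (13.6%) and mitochondrial ribosomal protein genes (14.3%). It lay below those of the TCA cycle genes (30.0%) and of the carriers and inhibitors (44.4%). None of 10 tissue marker genes had an optimal summit in the gene or its flanks, against 7.60% of all genes. Among the 10 were the muscle gene myo-3, the intestinal gene ges-1 and the neuronal gene unc-119. With so few genes, that count cannot be told apart from the share of all genes.

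By chromosome, the members with an optimal summit in the gene or its flanks were 5 of 9 on chromosome III, against 12.05% of all genes there, and 4 of 11 on chromosome I, against 9.35%. They were 2 of 5 on V, against 5.73%, and 1 of 3 on II, against 7.80%. On IV they were 1 of 4, against 7.01%, and on X 1 of 6, against 5.31%.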

How the data were processed

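The deposited files are peak lists of AMA-1 ChIP-seq from 2 biological replicates of 1 group. In them the authors gave each peak a signal (column 7), whose scale is not given, and a summit (column 10). Per the deposited descriptions of the files, a replicate list came from the alignment of that replicate, and the optimal list was made by IDR out of the pooled and the 2 replicate lists. The caller, the aligner and the threshold for IDR are not given in any source used here. Lists on ce10 were not used.

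Summits on ce11 were placed against the Ensembl release 115 annotation of WBcel235 (python 3.11.15, pandas 2.3.3), with RefSeq for cox-6B and for genome sequence. A summit within 500 bp of a 5′ end took that place first, then gene body, then 500 bp past the 3′ end. Placement was tested on simulated summits at long genes far from their neighbours. That test does not cover short genes or those with close or overlapping neighbours, such as many members. Many C. elegans messages are trans-spliced, so that their annotated 5′ end may not be where transcription starts. Protein identity came from global alignment (biopython 1.88) of translated coding sequences. No p-value was computed, because the series has 1 group. Each member with an optimal summit is named with all values, then the 5 with the highest pooled signal outside it, every member without a pooled region, and gene copies. Among other mitochondrial genes, up to 4 of a list could be named by signal. The prefix rule for further subunits also matched asd-1 and asd-2, which are not subunits and were left out. The members and lists were chosen with earlier results of these data known. Alternatives covered each replicate alone, and the 930 highest peaks and 3722 pooled peaks in place of 1861. Windows of 250 and 1000 bp, any base of a peak and any transcript's ends were also run. A further alternative gave each summit to the gene with the nearest 5′ end, or the nearest 3′ end for the count past it. The count of summits near both ends and the RefSeq span of cox-6B were added after seeing the data. Depth is unknown, and counts over genes carry no error.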

Additional observations from a re-analysis of the deposited data

How the results depend on the processing

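Every count of members stayed above the share over all genes under every alternative run. Taking 1 replicate at a time gave 5 to 13 members with a promoter summit (optimal list 9), 11 to 19 with one in the gene or its flanks (14), 4 to 7 past the 3′ end (6) and 2 to 3 near both ends (5). The 930 highest peaks of the optimal list gave 4, 8, 3 and 2 members for these counts in the same order, and the 3722 highest pooled peaks gave 18 near the 5′ end, 25 in the gene or its flanks and 10 past the 3′ end. Giving each summit to the gene with the nearest 5′ end gave 9 in the gene or its flanks, and a window of 250 bp gave 3 near both ends. The cause of these changes was not tested. The number of peaks differed from 1861 only in the settings with 930 and 3722 peaks. The other alternatives kept counts within 1.5 times. The place of the highest summit of hpo-18 was 1300 without replicate 2 and 23520 without replicate 1, against 1852. The place 23520 is that of a summit at 169 bp, and the region overlapping the -468 bp peak had place 29250 in replicate 2. The place of mev-1 was 2769 without replicate 2 and 1515 without replicate 1, against 1876. No paired analysis was possible because the series has 1 group. With depth unknown, absence from a list sets no limit on occupancy, and a list cut at a fixed number of peaks leaves members just below the edge uncalled.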
